A study of Rattus norvegicus with 54 samples.

Results

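Untransfected cultures of rat cortical neurons were compared at 6 h and at 2 h. These times count from the induction of epileptiform activity, which applies only to the medium without magnesium. Cultures in the standard medium with magnesium carry the same time points. The comparison held 12 of the 54 libraries of the series, chosen by their labels alone as the untransfected libraries of these 2 time points: 6 at 6 h and 6 at 2 h. The cultures came from the cortex of embryos at embryonic day 18 (E18), carried no virus, and were kept either in a standard medium with magnesium or in a medium without magnesium, which the labels call epileptic. Each of the 4 groups (2 media at 2 time points) had 3 libraries, numbered by the cell culture they came from, so that each culture number gave 1 library of every group. The series as a whole was made to study Mbd3, a methyl-CpG binding domain protein, in epileptogenesis; its other cultures carried an adeno-associated virus expressing GFP, or rMBD3 with GFP, under the SYN promoter.

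Magnesium ions block the NMDA type of glutamate receptor at resting potential, and their removal from the medium is a common way to bring cultured neurons into synchronous, seizure-like firing. Neuronal activity acts on transcription: immediate early genes respond first, and their products then act on later genes over hours. Genes of neurons are often very long, with large introns that are removed from the mature transcript, and many of the longest encode adhesion molecules, ion channels and synaptic proteins. The comparison at hand averaged over both media, so it described what differed between 2 h and 6 h with or without magnesium; the difference between media was tested apart. In bulk RNA, fewer cells of a type and less RNA per cell cannot be told apart.

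The count table names genes by Ensembl identifier only. The reference table at hand held no Ensembl identifiers for its genes, so none could be matched to a symbol. Markers, which would check the label "neurons", and lists of activity-regulated or pathway genes were therefore not analysed here. Genes were instead described by what the count table itself holds for each: level, genomic span, exonic length, number of exons, chromosome and neighbours. Genomic span here is the distance from a gene's first to its last annotated base, introns included, on mRatBN7.2.

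Total counts ran from 24321512 to 31481007 in the 6 libraries at 2 h and from 24824025 to 31712521 in the 6 at 6 h. The floor of 3 counts lay between 0.0946 and 0.123 CPM, the count scaled to library size in the usual unit, for counting error only. The first principal component (33.3% of variance) was explained to 60.9% by culture number and to 18.9% by time. The second component (28.7%) was explained to 72.7% by time and to 20.6% by culture number. Medium explained at most 28.3% of any of the first 3 components, and that was the last of them (9.1% of variance). The 50 most abundant genes took 9.38% to 12% of counts at 2 h and 11.4% to 14.1% at 6 h.

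Of 15650 genes tested, 6175 (39.5%) differed between 6 h and 2 h at an adjusted p under 0.05 (edgeR quasi-likelihood test with medium and culture number in the model, Benjamini-Hochberg adjustment over all genes tested). Of these, 2786 (17.8% of genes tested) were higher at 6 h and 3389 (21.7%) were lower. The excess of lower genes depended on scaling: relative log expression factors gave 3144 higher and 3126 lower, and DESeq2 gave 3433 and 3406. Called genes had a median absolute change of 0.72 on the log2 scale. A change of at least 1 on the log2 scale, that is at least a doubling or halving of CPM, was found in 1699 genes (10.9%), 716 higher (4.58%) and 983 lower (6.28%). The count was lowest without culture 2, when 2416 genes passed (794 higher, 1622 lower), against 7793 without culture 1 (4186 higher, 3607 lower) and 3651 without culture 3 (1515 higher, 2136 lower). The direction of the excess thus turned without culture 1.

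Most called genes moved the same way in every pair of libraries from the same culture and medium. Of the 2786 higher genes, 2091 were higher in 6 of 6 pairs, 656 in 5 and 39 in 4. Of the 3389 lower genes, 2813 were lower in 6 of 6 pairs, 550 in 5 and 26 in 4. The calls were made on these same pairs, so this agreement follows in part from the call and is a description. Agreement among genes not called is not given here. Separation without overlap was more frequent downward in the main scaling: in 1505 genes (9.62% of genes tested) all 6 libraries at 6 h lay below all 6 at 2 h, and in 520 genes (3.32%) all lay above. It was not counted under other scalings, on which the excess of lower genes depended.

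Genes with large rises and genes with large falls differed in level, which at a single time point follows in part from their choice by change. Their median average log2 CPM was 3.19 for genes that rose by at least 1 and 4.16 for those that fell by at least 1. Over all tested genes it was 4.46. The 716 genes that rose by at least 1 had a median of 4.98 CPM at 2 h and 13 CPM at 6 h, and took 1.95% to 2.95% of library counts at 2 h against 4.5% to 6.98% at 6 h. The 983 genes that fell by at least 1 were more abundant at the start, with a median of 24.8 CPM at 2 h and 10.2 CPM at 6 h, and their share of counts was 6.12% to 6.99% at 2 h and 2.35% to 4.06% at 6 h. Neither pair of ranges overlapped, as follows from how these genes were chosen. A rise of at least 2 on the log2 scale was seen in 95 genes and a fall of at least 2 in 60. The spread between libraries also differed: the median coefficient of variation over the 6 libraries of a time point was 43.2% at 2 h and 42.5% at 6 h for the risers, 20.7% and 34.9% for the fallers, and 20.4% and 27.2% over all tested genes.

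Sizes differed among the cultures and were smallest in culture 1 with magnesium. The median change of the 716 risers was 0.94 on the log2 scale in culture 1 with magnesium, 1.4 in culture 1 without, 1.48 in culture 2 in either medium, 0.95 in culture 3 with magnesium and 1.68 in culture 3 without. The 983 fallers had medians of -0.82 and -1.15 in culture 1 with and without magnesium, -1.55 and -1.54 in culture 2, and -1.12 and -1.44 in culture 3. Culture 1 with magnesium also had the highest mitochondrial share of counts at either time, 3.42% at 2 h and 4.9% at 6 h, against medians of 1.65% and 1.96% over the 6 libraries of each time point. Without the 2 libraries of that culture in that medium, 6876 genes passed (3644 higher, 3232 lower), of which 2078 changed by at least 1.

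Falls were most frequent among genes with long genomic spans. Of 51 tested genes spanning over 1 Mb, 41 (80.4%) were lower at 6 h and 2 (3.92%) were higher, against 21.7% lower and 17.8% higher over all genes tested. In the 460 genes of 300 kb to 1 Mb, 266 (57.8%) were lower and 38 (8.26%) higher. In the 1681 genes of 100 to 300 kb, 611 (36.3%) were lower and 242 (14.4%) higher. Below that the shares came close to each other and then crossed: 23.9% lower and 17.3% higher in 4194 genes of 30 to 100 kb, 17.6% and 19.9% in 4684 genes of 10 to 30 kb, 15.3% and 21.2% in 3005 genes of 3 to 10 kb, and 11.5% and 13.3% in 1575 genes of up to 3 kb. None of the genes over 1 Mb was higher by at least 1, and 28 of the 51 were lower by at least 1. Among those of 300 kb to 1 Mb, 14 were higher and 145 lower by at least 1.

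The median log2 fold change followed the same order. It was 0.12 in genes of up to 3 kb, 0.08 at 3 to 10 kb, 0.05 at 10 to 30 kb, -0.03 at 30 to 100 kb, -0.24 at 100 to 300 kb, -0.72 at 300 kb to 1 Mb and -1.2 over 1 Mb, where 47 of 51 genes lay below zero. Over all tested genes the median was near zero (-0.002). Called genes differed in span accordingly: the median was 59479 bases for genes lower by at least 1, 18849.5 for genes higher by at least 1, and 19128 for genes not called. Of the genes lower by at least 1, 38.9% spanned over 100 kb, as did 12.6% of those higher by at least 1 and 14% of all genes tested.

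**Figure D1:**
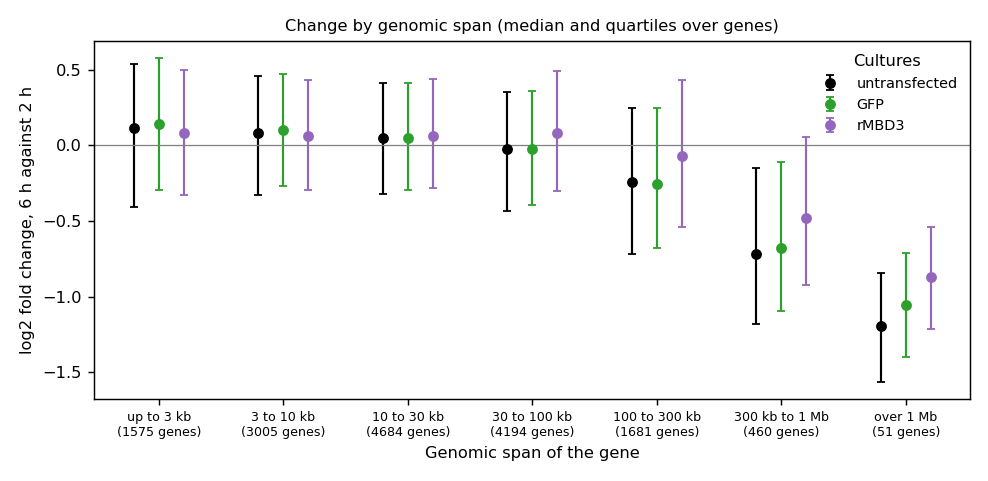
Log2 fold change of 6 h against 2 h (vertical axis) by genomic span of the gene (horizontal axis), as the median over genes (point) with the quartiles (bars), for untransfected, GFP and rMBD3 cultures. The medians stay near 0 up to 100 kb and fall to -1.2 in untransfected cultures for the 51 genes over 1 Mb.

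The fall in genes over 300 kb was present in each culture and medium. In genes over 1 Mb the median change was -0.71 in culture 1 with magnesium and -0.84 without, -1.48 and -1.5 in culture 2, and -1.09 and -1.21 in culture 3. In genes of 300 kb to 1 Mb the same medians were -0.42 and -0.48, -0.91 and -0.98, and -0.76 and -0.71. All 6 values were below zero in both classes, and culture 1 gave the smallest in each medium. Below 100 kb the order by span held in cultures 1 and 3 with magnesium and not in the other pairs. In culture 2 without magnesium, for example, the medians were 0.013, 0.091, 0.077 and 0.006 from the shortest class to 30 to 100 kb.

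The share of a library's counts that fell in genes over 1 Mb showed the same in single libraries. At 2 h it was 0.312%, 0.31% and 0.304% in cultures 1, 2 and 3 with magnesium and 0.273%, 0.296% and 0.253% without. At 6 h it was 0.204%, 0.132% and 0.156% with magnesium and 0.132%, 0.127% and 0.129% without. The highest library at 6 h, culture 1 with magnesium, lay below the lowest at 2 h. In genes of 300 kb to 1 Mb the share ran from 2.36% to 3.08% (median 2.71%) at 2 h and from 1.57% to 2.39% (median 1.68%) at 6 h, where culture 1 with magnesium, at 2.39%, overlapped the range at 2 h. Genes of 3 to 10 kb took 17.7% to 19.6% of counts at 2 h and 19.3% to 22.2% at 6 h. At 24 h, given here as a level only, genes over 1 Mb took 0.0604% to 0.148% (median 0.0971%) and those of 300 kb to 1 Mb took 1.27% to 2.23% (median 1.48%).

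**Figure D2:**
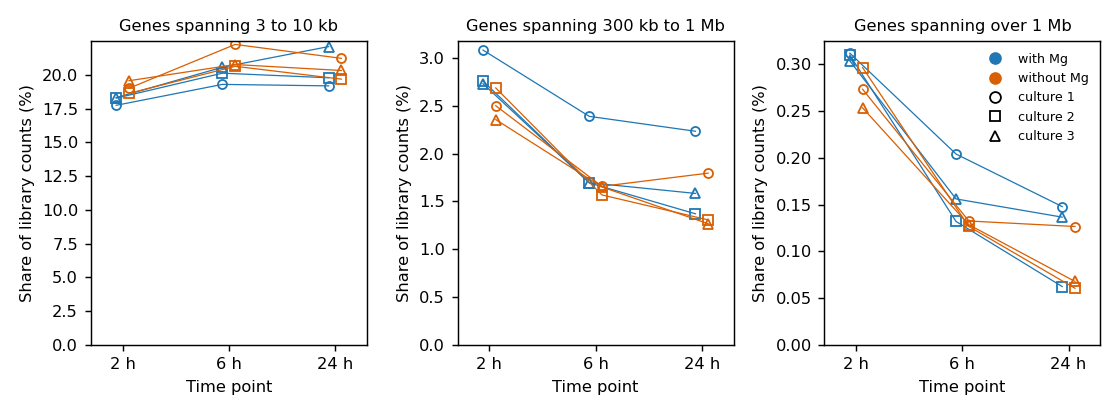
Share of library counts in percent (vertical axis) that fell in genes of 3 to 10 kb, 300 kb to 1 Mb and over 1 Mb at 2, 6 and 24 h in untransfected cultures; each point is a library, lines join libraries of the same culture and medium. For genes over 1 Mb all 6 libraries at 6 h lie below all 6 at 2 h.

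Long genes are also longer in exons and more often of moderate level, so the classes were split by these properties. Among the 511 genes over 300 kb, the median change was -0.64 in the lowest tertile of level (134 genes, 47 lower), -0.82 in the middle tertile (233 genes, 150 lower) and -0.85 in the highest tertile (144 genes, 110 lower). Genes over 300 kb with an exonic length above the median of all tested genes had a median change of -0.76 (431 genes), and those with a shorter exonic length had -0.85 (80 genes). By exon number, the median was -1.16 in 21 genes of up to 5 exons, -0.91 in 163 genes of 6 to 15 and -0.71 in 327 genes of more than 15. The median was thus below zero at every level, exonic length and exon number examined. In genes of up to 10 kb the medians by level were 0.11, 0.04 and 0.14 from the lowest to the highest tertile.

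Short genes were also split by exon number. Of the 840 single-exon genes of up to 10 kb, 9.4% were higher and 15.6% lower at 6 h. Of the 3740 genes of that span with several exons, 20.5% were higher and 13.7% lower. The median change was 0.1 in each set, and the shares were not tested against each other.

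Chromosome X had the largest share of lower genes and the smallest share of higher genes among chromosomes 1 to 20 and X. Of its 533 tested genes, 169 (31.7%) were lower at 6 h and 58 (10.9%) higher, against 21.4% lower and 18.1% higher in the 15065 genes of chromosomes 1 to 20. The median change was -0.13 on X and 0.002 on chromosomes 1 to 20. The chromosomes with the fewest lower genes were 17 (16.8%) and 20 (16.9%), and chromosome 6 came after X with 25.2%. Reads on X made up 2.82% to 2.94% of counts at 2 h and 2.35% to 2.66% at 6 h, without overlap, and the 6 h library with the highest share was again culture 1 with magnesium.

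The larger share of lower genes on X was found in short and medium genes. In genes of up to 10 kb, 27.4% of 179 genes on X were lower against 13.6% of 4359 on chromosomes 1 to 20. In genes of 10 to 100 kb the shares were 32.3% of 254 and 20.3% of 8615. In genes of 100 to 300 kb they were 33.3% of 78 and 36.5% of 1602, and over 300 kb they were 54.5% of 22 and 60.3% of 489. These shares were not tested against each other.

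**Figure D3:**
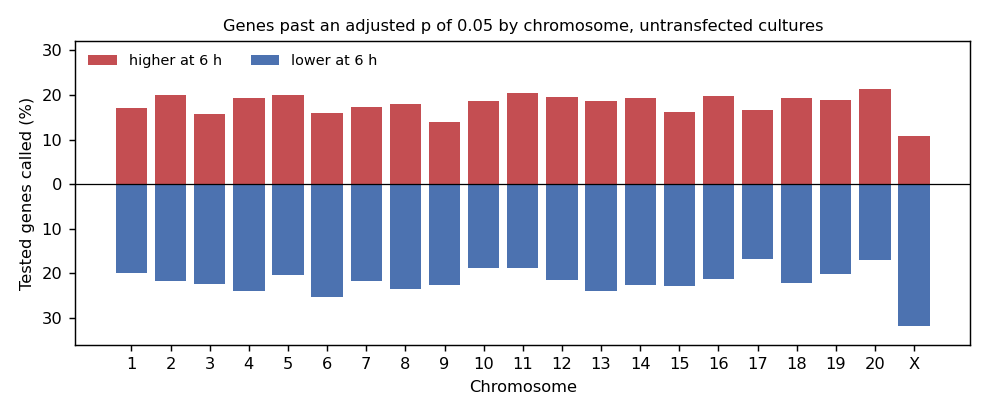
Share of tested genes called at an adjusted p under 0.05 in percent (vertical axis), higher at 6 h (bars upward) and lower at 6 h (bars downward), by chromosome (horizontal axis) in untransfected cultures. Chromosome X stands out with 31.7% lower and 10.9% higher.

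Transcripts of the mitochondrial genome, which encode subunits of the respiratory chain and the RNAs that translate them, all had values above zero and mostly did not pass the test. Of 21 tested, 1 (4.76%) was higher at an adjusted p under 0.05 and 0 lower, against 17.8% higher and 21.7% lower over all genes tested. Their median log2 fold change was 0.36. The mitochondrial share of counts was 1.38% to 3.42% at 2 h and 1.8% to 4.9% at 6 h, and the ranges overlapped.

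Genes that changed by at least 1 in the same direction at times lay side by side. Runs of 3 or more adjacent tested genes were found 19 times among the fallers (6.28% of genes tested) and 7 times among the risers (4.58%). The number of runs to be expected from these shares alone was not tested. The faller runs included genes of 0.081 to 0.093 kb on chromosome 6, at no more than 2.18 CPM. The longest held 7 genes that fell, on chromosome 18 at chr18:28581225-29067805, with log2 fold changes from -1.66 to -1.23 and a highest level of 337 CPM. In that run 1 of the 7 genes spanned over 100 kb, and 1 pair of neighbours on the same strand overlapped, so reads of that pair may not be fully told apart. The same 7 genes had log2 fold changes of -1.68 to -0.93 in GFP cultures and -1.34 to -0.45 in rMBD3 cultures. A run of 4 genes at chr2:66228117-73820138 changed by -1.8 to -1.01, and all 4 spanned over 100 kb. The run of risers with the highest level held 3 genes at chr13:82195463-82378889 and reached 285 CPM in its most abundant gene. Changes ran from 1.08 to 5.27 over the 3 genes. The highest level and the largest change need not belong to the same gene, and the gene with 5.27 lay outside the limits on level and pairs used below. The changes in this run were 1.28 to 5.62 in GFP cultures and 1.13 to 6.85 in rMBD3 cultures.

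The change over time did not differ between media at the threshold. In the test of the difference itself (edgeR quasi-likelihood test, time by medium), 0 of 15650 genes (0%) passed an adjusted p under 0.05, 256 had an unadjusted p under 0.05, and DESeq2 called 9. Fitted in each medium alone, 3427 genes passed with magnesium and 3393 without, and those that changed by at least 1 numbered 995 with magnesium and 1791 without. The 662 risers of at least 1 that could be fitted in both media had a median change of 1.19 with magnesium and 1.51 without, and all 662 had the same sign. The 960 such fallers had medians of -1.09 and -1.37, and all 960 had the same sign. A p that misses the threshold does not show that the media acted alike, and these genes were chosen on the average of both.

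Of the genes changed in all 6 pairs with a mean of at least 1 log2 CPM, the pair with the largest rise and the pair with the largest fall are given in full; larger changes were found outside these limits, such as the 5.27 of the chromosome 13 run and a change of -4.53 in a run of 3 genes at chr6:128629993-128631856 of 0.081 to 0.09 kb. Under these limits on level and pairs, the largest rise was that of ENSRNOG00000037931, at chr1:80050324-80068595 on the plus strand, with 13 annotated exons and 2722 exonic bases. At 2 h it was at 1.24, 4.02 and 3.44 CPM in cultures 1, 2 and 3 with magnesium and at 1.62, 3.28 and 1.98 CPM without. At 6 h it was at 9.42, 17.3 and 63.7 CPM with magnesium and at 20.2, 30.1 and 30.8 CPM without. Every library at 6 h lay above every library at 2 h, and culture 3 with magnesium was the highest. All genes given in full were chosen on these libraries, so such separation is a description here and below. The fitted rise was 3.4 ± 0.33 on the log2 scale (SE; edgeR adjusted p = 2.29e-05), and it was 3.17 with magnesium and 3.59 without. At 24 h its level was 9.6 to 29.2 CPM (median 18.8).

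Under the same limits, the next largest rise was that of ENSRNOG00000014835, at chr9:42697192-42727256 on the plus strand, with 12 annotated exons. It was near the floor at 2 h, with 3, 14 and 8 counts in cultures 1, 2 and 3 with magnesium and 18, 9 and 10 without, or 0.129 to 0.663 CPM (median 0.314). At 6 h it was at 0.931, 1.92 and 6.67 CPM with magnesium and at 6.66, 3.74 and 4.31 CPM without. The groups did not overlap, and cultures 1 and 2 with magnesium were the lowest at 6 h. The fitted rise was 3.36 ± 0.5 on the log2 scale (SE; edgeR adjusted p = 0.000265), and at 24 h the level was 2.93 to 6.01 CPM.

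Among genes within the same limits, the largest fall was that of ENSRNOG00000030877, on chromosome X at chrX:110641153-110870287 on the plus strand, with 10 annotated exons over 229135 bases. At 2 h it was at 2.4, 4.46 and 5.82 CPM in cultures 1, 2 and 3 with magnesium and at 3.86, 5.92 and 3.44 CPM without. At 6 h it was at 1.27, 0.785 and 0.789 CPM with magnesium and at 0.148, 0.572 and 0.285 CPM without. All libraries at 6 h lay below all at 2 h, and those without magnesium were the lowest. The fitted change was -2.85 ± 0.41 on the log2 scale (SE; edgeR adjusted p = 0.000213). It was -2.02 with magnesium and -3.79 without, a difference that did not pass the test (-1.67, adjusted p = 0.999, edgeR). At 24 h it was at 0.065 to 1.2 CPM (median 0.186).

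The next largest fall within these limits was that of ENSRNOG00000027400, at chr9:72253387-72444839 on the plus strand, with 4 annotated exons over 191453 bases. At 2 h it was at 3.13, 4.24 and 5.14 CPM in cultures 1, 2 and 3 with magnesium and at 4.34, 5.34 and 4.9 CPM without. At 6 h it was at 1.41, 0.745 and 0.969 CPM with magnesium and at 0.481, 0.191 and 0.887 CPM without. The groups did not overlap. The fitted change was -2.61 ± 0.37 on the log2 scale (SE; edgeR adjusted p = 0.000176), and at 24 h the gene was at 0 to 0.869 CPM, with 0 counts in 1 of the 6 libraries. Both of these genes spanned over 100 kb, and both had their lowest level at 6 h in a library without magnesium.

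**Figure D4:**
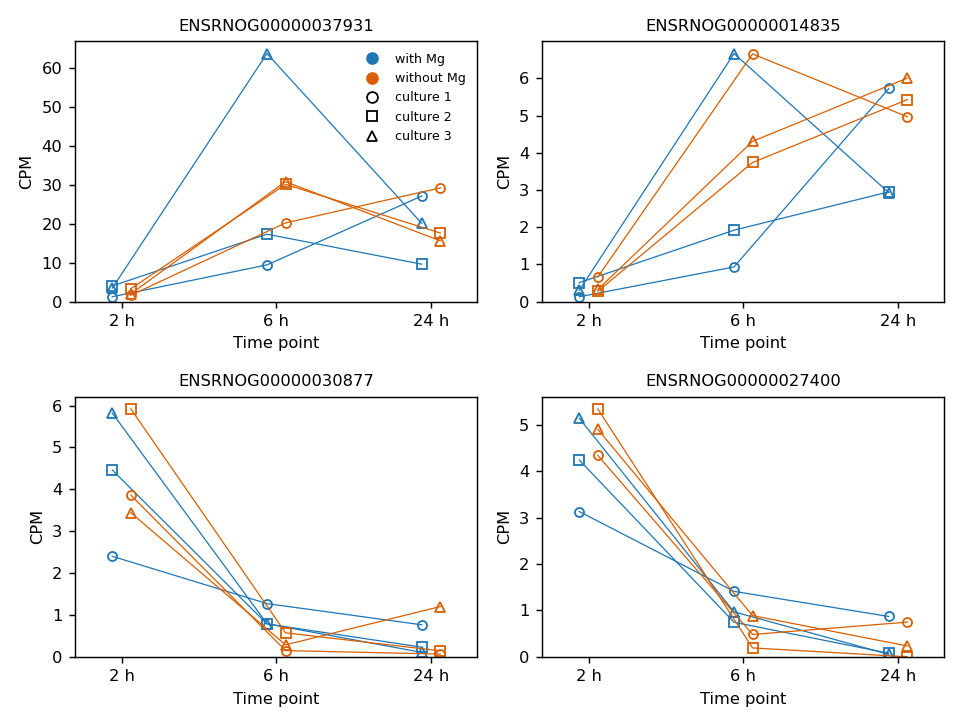
CPM (vertical axis) at 2, 6 and 24 h in untransfected cultures of the pair of genes with the largest rise (upper row) and the pair with the largest fall (lower row) among called genes of at least 1 mean log2 CPM that moved one way in all 6 pairs; each point is a library and lines join the same culture and medium. In each panel the 6 libraries at 6 h do not overlap the 6 at 2 h, as in ENSRNOG00000037931, whose 6 h levels of 9.42 to 63.7 CPM lie above 4.02 CPM. The genes were chosen on the 2 h and 6 h libraries, so this separation is a description.

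The levels at 24 h in the same untransfected cultures are set beside those at 2 h and 6 h. The 716 risers of at least 1 had medians of 4.97, 12.9 and 14.8 CPM at 2, 6 and 24 h. At 24 h 392 of them lay above both earlier levels, 301 between and 23 below both. The 983 fallers had medians of 24.7, 10.1 and 5.88 CPM. At 24 h 843 lay below both earlier levels, 135 between and 5 above both. Since the genes were chosen on the 2 h and 6 h libraries, these counts are a description.

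The GFP and rMBD3 cultures give the same comparison in libraries that the untransfected one does not use, though from the same culture numbers. In GFP cultures 7884 of 15431 genes (51.1%) passed, 3878 higher (25.1%) and 4006 lower (26%). In rMBD3 cultures 7769 of 15462 (50.2%) passed, 4096 higher (26.5%) and 3673 lower (23.8%). Of the genes tested in both, 5547 were called in the same direction in untransfected and GFP cultures, which is 90.2% of the untransfected calls and 70.7% of the GFP calls, and 0 were called in opposite directions. With rMBD3 cultures 5086 were shared, 82.8% of the untransfected and 65.8% of the rMBD3 calls, and 3 were opposite. Across genes, which are not independent replicates, the log2 fold changes correlated with those of GFP cultures at Pearson's r = 0.891 (Spearman's rho 0.9, 15199 genes) and with those of rMBD3 cultures at r = 0.821 (rho 0.823, 15198 genes).

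**Figure D5:**
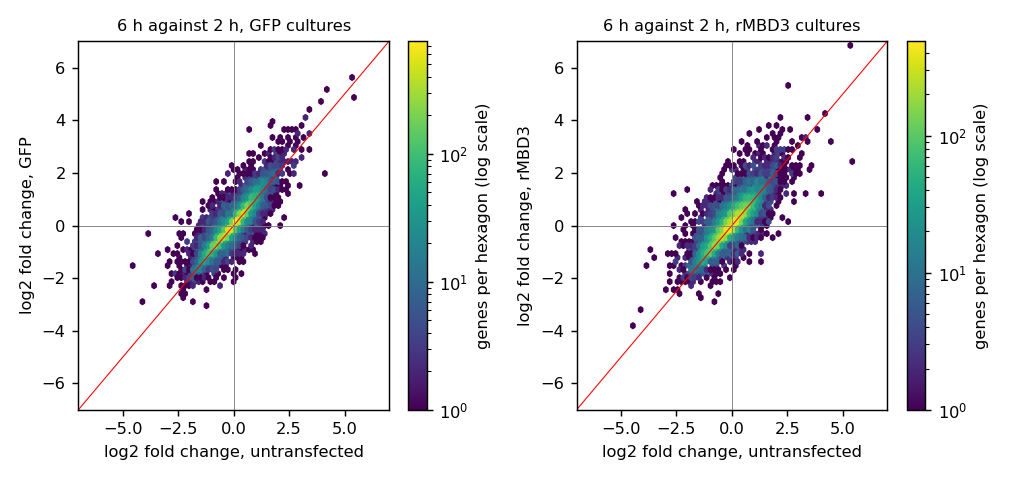
Log2 fold change of 6 h against 2 h in GFP (left) and rMBD3 cultures (right, vertical axes) against that in untransfected cultures (horizontal axes); colour gives the number of genes per hexagon on a log scale and the red line marks equal values. Points lie along the line in both panels, with r = 0.891 for GFP and 0.821 for rMBD3.

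In GFP cultures the medians fell in the same order of genomic span, from 0.14 in genes of up to 3 kb to -0.02 at 30 to 100 kb. In rMBD3 cultures there was no order below 100 kb, where the medians of the 4 classes were 0.08, 0.06, 0.06 and 0.08. In single pairs of untransfected libraries, that order below 100 kb held only in cultures 1 and 3 with magnesium, so its absence is not particular to rMBD3. Of 4108 genes of 30 to 100 kb in rMBD3 cultures, 1296 were higher and 969 lower. Over all genes tested in rMBD3 cultures, 26.5% were higher and 23.8% lower. In untransfected cultures 724 of 4194 (17.3%) were higher and 1003 (23.9%) lower, against 17.8% and 21.7% over all genes tested. Above 100 kb the medians fell with span in both GFP and rMBD3 cultures. Genes over 1 Mb had a median change of -1.05 in GFP and -0.87 in rMBD3 cultures, beside -1.2 in untransfected cultures. Genes of 300 kb to 1 Mb had -0.68, -0.48 and -0.72 in the same order. Genes of 100 to 300 kb had -0.26 in GFP, -0.07 in rMBD3 and -0.24 in untransfected cultures. The share of counts in genes over 1 Mb was 0.281% to 0.345% at 2 h and 0.143% to 0.221% at 6 h in GFP cultures, and 0.189% to 0.316% and 0.144% to 0.164% in rMBD3 cultures, without overlap between times in either. The median of this share at 2 h was 0.318% in GFP, 0.255% in rMBD3 and 0.3% in untransfected cultures. At 6 h it was 0.155%, 0.153% and 0.132% in the same order. The smaller fall in rMBD3 cultures thus went with a lower share at 2 h, which was not tested.

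Of 16480 genes, 0 (0%) differed in their change between GFP and untransfected cultures at an adjusted p under 0.05 (edgeR), and 253 had an unadjusted p under 0.05. Between rMBD3 and untransfected cultures 2 genes (0.0121%) differed, and 1438 had an unadjusted p under 0.05. The first, ENSRNOG00000008203 at chr15:11574231-11900243 on the minus strand, spans 326013 bases. It fell in untransfected cultures from 17.1 to 25.3 CPM (median 20) at 2 h to 5.58 to 11.6 CPM (median 7.63) at 6 h, a log2 fold change of -1.49 ± 0.18 (SE, adjusted p = 7.45e-05, edgeR). In GFP cultures it fell from a median of 24.7 to 15.5 CPM (-0.76), and in rMBD3 cultures the medians were 24.4 and 19.3 CPM (-0.13, adjusted p = 0.324, edgeR). The difference of rMBD3 from untransfected cultures was 1.34 ± 0.21 (SE, adjusted p = 0.00606, edgeR).

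The second, ENSRNOG00000016182 at chr4:118618269-118700894 on the plus strand, rose in all 3 kinds of culture. In untransfected cultures it went from 2.75 to 4.82 CPM (median 3.6) at 2 h to 4.35 to 7.86 CPM (median 5.74) at 6 h, where the ranges overlapped, with a log2 fold change of 0.64. In GFP cultures the medians were 3.5 and 7.32 CPM (0.97), and in rMBD3 cultures 4.45 and 17 CPM (2.27). The difference of rMBD3 from untransfected cultures was 1.68 ± 0.26 (SE, adjusted p = 0.00606, edgeR). Both genes were chosen after their values were seen, and neither difference passed without culture 2, without culture 3 or without the culture number in the model.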

How the data were processed

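Per the labels, the sequencing kit was a stranded one for mRNA. The authors deposited raw read counts per gene, made with featureCounts 2.0.0 on read pairs (strand setting 2, minimum mapping quality 3, primary alignments) and the annotation of mRatBN7.2, Ensembl release 105, per the file headers. The labels name STAR and rn6, and the submitters' processing notes also list Trim Galore, Salmon, SAMtools and DESeq2. Counting used strand, while reads of near-identical genes may be lost or misplaced. The deposited normalized values were not used.

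From the counts, low genes were removed (filterByExpr with a count of 10 and a total of 15), libraries were scaled by TMM, and differences were tested with edgeR 4.0.16 (R 4.3.3; robust quasi-likelihood fit; medium, culture number and time as terms) on the 12 libraries, with Benjamini-Hochberg adjustment at 0.05. Differences between constructs were fitted on the 36 libraries at 2 h and 6 h with culture number as a term. Standard errors were computed as the absolute change over the root of F. CPM were TMM-scaled, those of the genes named in full over the 18 untransfected libraries. Exon numbers count merged annotated blocks. The scripts were tested on simulated data.

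The culture number comes from the labels, which name it as the biological replicate, so libraries were paired by it. Deviations from group means correlated at a mean of 0.293 (range -0.033 to 0.692) for the same number and -0.135 (range -0.602 to 0.387) for other numbers. The ranges overlapped. The means are not independent, since deviations within a group cancel out. Libraries of a group were no copies of each other: chi-square per gene was 9.76 to 320 over 12 pairs.

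Alternatives were the model without culture number, DESeq2 1.42.0, other scalings, no filter, each medium alone, all 54 libraries, and leaving out each culture. The fit without culture 1 with magnesium was chosen after seeing the data. Named genes were the most changed of the called genes that moved one way in 6 of 6 pairs and averaged 1 log2 CPM or more. They were limited to 2 per direction because identifiers had no symbols. Of 47357 reference genes of assembly GRCr8, 0 held an Ensembl identifier to match. The planned gene lists, markers and promoter motifs need symbols and were not analysed here. The comparison, the span classes and the lists were chosen with earlier results of these data known.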

Additional observations from a re-analysis of the deposited data

Results flagged for a closer look

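In the test of the difference in change between rMBD3 and untransfected cultures (6 h against 2 h, culture number in the model), 2 of 16480 genes passed an adjusted p under 0.05. The difference was 1.68 on the log2 scale for ENSRNOG00000016182 and 1.34 for ENSRNOG00000008203, both more positive in rMBD3 cultures. At 6 h all 6 rMBD3 libraries lay above all 6 untransfected ones for either gene, with 13.5 to 35.8 against 4.35 to 7.86 CPM for the first and 17.3 to 33 against 5.58 to 11.6 CPM for the second. Both genes were chosen on this difference in these libraries, so the separation is a description. GFP cultures at 6 h held 4.84 to 11.3 CPM of the first and 11.1 to 17 CPM of the second. Neither difference passed without culture 2, without culture 3 or without the culture number in the model.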

How the results depend on the processing

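With no replicate block, that is without culture number in the model, 4612 genes passed, 1461 of them by at least 1. The other counts were then 0 for the difference between media, 5783 in GFP cultures, 5810 in rMBD3 cultures, and 0 for either difference between constructs (2 with the block for rMBD3). The difference of rMBD3 was then 1.71 for ENSRNOG00000016182 and 1.35 for ENSRNOG00000008203, neither past the threshold. The block changed no other call of a named gene.

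Each medium alone has 6 libraries: 3427 genes passed with magnesium, 995 of them by at least 1, and 3393 without magnesium, 1791 of them by at least 1. DESeq2 called 9 genes for the difference between media and 26 for the difference between rMBD3 and untransfected cultures. Leaving out a culture gave 2416 to 7793 genes, and 909 to 2399 by at least 1. It gave 4821 to 8785 in GFP cultures, the lowest without culture 3. For the difference between constructs it gave 0 to 1 genes for GFP and 0 to 17 for rMBD3. The causes of these shifts were not tested. Fits of a single medium or without a culture held fewer libraries, while DESeq2 used the same libraries as the main fit. The difference of rMBD3 ran from 1.59 to 1.82 and from 1.27 to 1.61 in the fits that lost the call by leaving out a culture.

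The 4 genes named in full kept their direction and call in 12 of 12 alternatives. The median change of genes over 300 kb was -0.88 to -0.65 and that on X was -0.2 to -0.05. In genes of up to 10 kb it was 0.1, and 0.02 without the filter, 0.04 with all 54 libraries, and 0.15 with magnesium only or without culture 1 with magnesium. Over all genes the median was -0.056 to 0.069. Depth limits genes near the floor of 0.0946 to 0.123 CPM, such as ENSRNOG00000014835 at 2 h.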
